A study of Caenorhabditis elegans with 2 samples.

Results

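The cytosolic ribosome of Caenorhabditis elegans is built from proteins of a large and a small subunit, and nearly all of them are named rpl- (ribosomal protein, large) or rps- (ribosomal protein, small). The members described here are the protein-coding genes whose symbol starts with rpl- or rps- followed by a digit in the Ensembl annotation of WBcel235 (the same assembly as ce11). There were 78 of them among 19973 nuclear protein-coding genes, 47 for the large subunit and 31 for the small subunit. Each gene was given the highest region of the pooled list whose summit lay within 1000 bp of its annotated 5′ end.

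The data came from chromatin immunoprecipitation followed by sequencing (ChIP-seq) of NHR-77, a member of the large nuclear hormone receptor family of this nematode, tagged with eGFP. All samples were of 1 group, whole L2 larvae of strain OP353, which carries the transgene wgIs353 with the tagged nhr-77 in an unc-119(tm4063) III background, with both sexes pooled and the age given as unknown. There were 2 biological replicates and no other group. No untagged strain, input or antibody control was analysed here, so every comparison is among genes or between the replicates, and none carries a p-value. Whole larvae hold many tissues, so a low value in all cells and a high value in few cells cannot be told apart.

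Ribosomal protein genes are among the most heavily transcribed genes of a growing larva, and the ribosome needs their products in about equal numbers. Cells therefore tend to express them together. Many mRNAs of this nematode, those for ribosomal proteins among them, receive a spliced leader at their 5′ end by trans-splicing. The annotated 5′ end of such a gene is then close to the start codon and need not be where transcription begins. Among the members the median distance from annotated 5′ end to start codon was 8 bp.

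The value given for each region is the signal value of the authors' peak caller, a score whose scale is not stated, so sizes are compared only within the pooled list and ranks are used across lists. The pooled list held 30000 regions, that of replicate 1 held 23256 and that of replicate 2 held 30000. The thresholded list, called peaks below, consisted of the 415 highest pooled regions, the lowest with a signal of 27.1. In replicate 1, 15 of the 25 highest regions were mitochondrial, 23 in the whole list, and replicate 2 listed none. A rank in replicate 1 counts them unless it is called a nuclear rank. Sequencing depth is unknown.

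A region near the 5′ end was found for 71 of the 78 ribosomal protein genes (91%), where 51.0% of all protein-coding genes had one. A peak stood near 29 of them (37.2%), against a background of 1.99% of all protein-coding genes. Expressed over the other genes alone, the share was 369 of 19895, or 1.85%. A region within the 415 highest nuclear regions of both replicates was found for 16 members (20.5%), against 0.951% of all protein-coding genes. Among all genes ordered by their highest region, 17 members fell in the top 1% and 39 in the top 5%. These shares lie well above the background, but no test was run on them, since the samples form 1 group.

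The subunits had similar shares. In the large subunit 43 of 47 genes had a region (91.5%) and 17 a peak (36.2%), and in the small subunit 28 of 31 had a region (90.3%) and 12 a peak (38.7%). The median signal of genes with a region was 20.19 in the large and 20.21 in the small subunit, against 8.823 over all protein-coding genes with a region. With summits within 500 bp only, the medians were 15.93 and 23.75, so their closeness depends on the distance allowed. The middle 50% of the members spanned 12.37 to 36.86, and that of all genes 7.127 to 11.73. The median pooled rank was 813 in the large and 868.5 in the small subunit, against 11460 over all genes. The regions of the 2 subunits overlapped over nearly the whole range, with the highest value, that of rpl-3, in the large subunit.

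**Figure D1:**
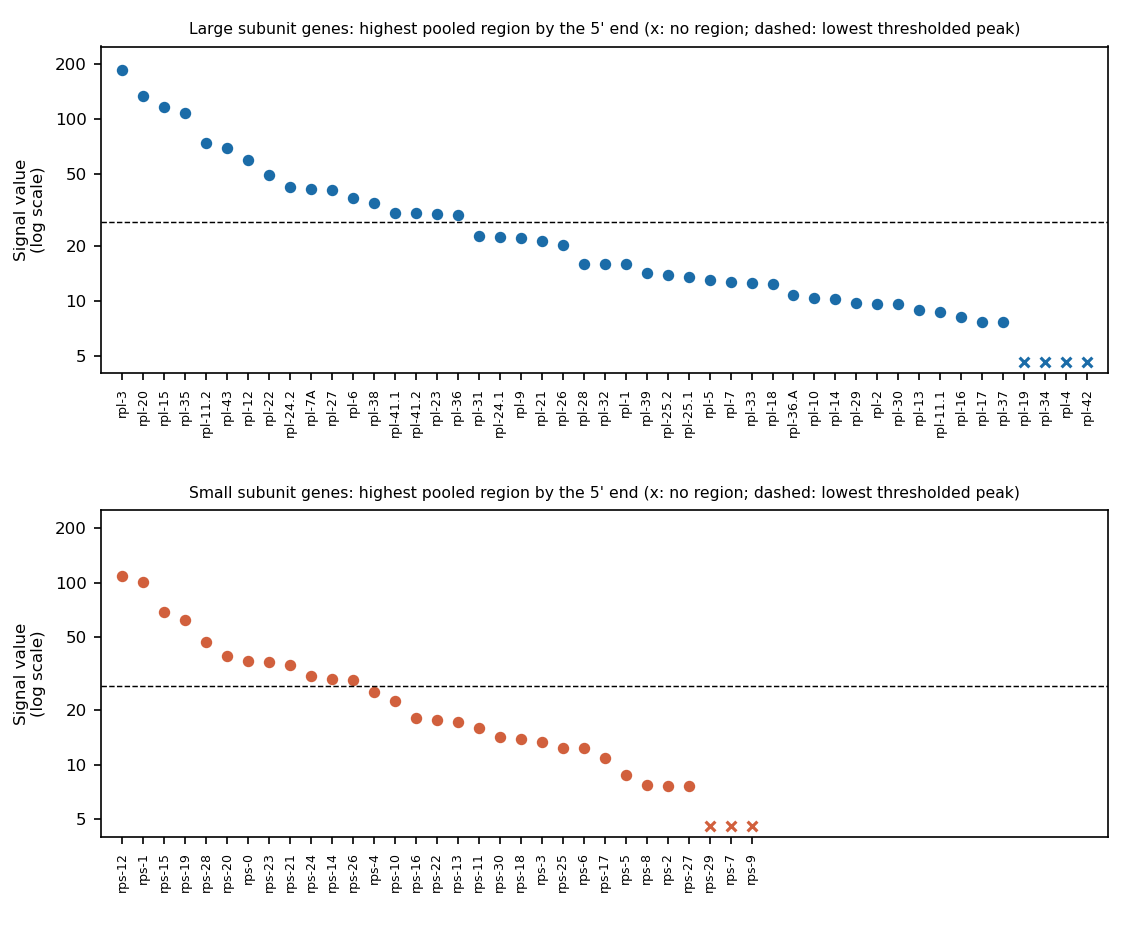
Signal value (vertical, log scale, no unit) of the highest pooled region within 1000 bp of the 5′ end for each ribosomal protein gene, large subunit above and small subunit below, in order of signal. Crosses at the foot mark genes with no region and the dashed line marks the lowest thresholded peak at 27.1. The values fall from 186.4 at rpl-3 to 7.606 at rps-27, with 17 large and 12 small subunit genes above the line.

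The 6 highest members each had a signal over 100 and a rank within the 50 highest regions of both replicates. The first was rpl-3 (WBGene00004414), whose product lies near the peptidyl transferase centre where amino acids are joined. Its peak (chrIII:3867453-3867693) had a signal of 186.4, rank 5 in the pooled list, 24 in replicate 1 (nuclear rank 9) and 4 in replicate 2. In the order of all protein-coding genes it came second. Next in the large subunit was rpl-20 (WBGene00004432), with a signal of 133.6, pooled rank 18, and ranks 35 and 18 in replicates 1 and 2. The gene rpl-15 (WBGene00004427), for a protein deep in the large subunit, had a signal of 116.7, pooled rank 20, and ranks 32 and 19. The gene rpl-35 (WBGene00004449), for a protein near the exit of the tunnel through which the new chain leaves, had a signal of 107.4, pooled rank 24, and ranks 43 and 21. All 4 were high in both replicates.

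In the small subunit, rps-12 (WBGene00004481) was highest with a signal of 108.5, pooled rank 23, and ranks 39 and 25 in replicates 1 and 2. It was followed by rps-1 (WBGene00004470), whose human relative is RPS3A, with a signal of 101.3, pooled rank 28, and ranks 42 and 31. The value of rps-12 was within the range of the 4 large subunit genes and that of rps-1 was below it. At rps-12 the summit was 163 bp from its own 5′ end and 130 bp from that of the divergent kinetochore gene ska-3, and a small nucleolar RNA gene lay within 500 bp. At rpl-20 the summit was 287 bp from its 5′ end and 175 bp from that of Y17G9B.5. Which gene of such a pair a peak belongs to cannot be told from its position.

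Sequences are shown for the 4 members of each subunit with the highest signal among those on the chromosomes whose sequence is printed and with no untranslated region annotated in the window. That choice passed over rps-15, rps-19 and rps-20, so rps-0, with a signal of 37.0, is the lowest of those shown. Each is a stretch of ce11 centred on the summit, printed 5′ to 3′ on the strand of the gene, with TACGGT, a hexamer described further on, in capitals where it reads in the direction of the gene. The windows of the large subunit were chrIII:3867519-3867619 (plus strand) for rpl-3, chrIV:4750015-4750115 (minus strand) for rpl-20, chrIV:654865-654965 (minus strand) for rpl-15 and chrIII:7854626-7854726 (plus strand) for rpl-35. Those of the small subunit were chrIII:5679085-5679185 (plus strand) for rps-12, chrIII:4475605-4475705 (plus strand) for rps-1, chrIV:1659187-1659287 (plus strand) for rps-28 and chrIII:4754293-4754393 (minus strand) for rps-0.
rpl-3: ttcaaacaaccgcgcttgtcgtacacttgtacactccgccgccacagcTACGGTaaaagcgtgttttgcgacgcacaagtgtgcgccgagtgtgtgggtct
rpl-20: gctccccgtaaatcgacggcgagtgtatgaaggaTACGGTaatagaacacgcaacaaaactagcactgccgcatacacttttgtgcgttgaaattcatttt
rpl-15: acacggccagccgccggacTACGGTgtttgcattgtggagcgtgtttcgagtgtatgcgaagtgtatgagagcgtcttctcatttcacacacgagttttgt
rpl-35: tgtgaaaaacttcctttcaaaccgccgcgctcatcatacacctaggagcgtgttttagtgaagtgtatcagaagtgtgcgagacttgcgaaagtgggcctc
rps-12: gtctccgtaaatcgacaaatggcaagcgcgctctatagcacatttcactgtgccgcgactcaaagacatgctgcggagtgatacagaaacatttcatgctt
rps-1: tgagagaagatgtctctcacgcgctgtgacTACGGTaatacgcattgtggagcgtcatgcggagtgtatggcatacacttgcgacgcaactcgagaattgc
rps-28: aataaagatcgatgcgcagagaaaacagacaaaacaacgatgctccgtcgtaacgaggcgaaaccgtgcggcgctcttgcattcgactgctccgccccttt
rps-0: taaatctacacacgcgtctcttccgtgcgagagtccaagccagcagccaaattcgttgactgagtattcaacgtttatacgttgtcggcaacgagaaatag
Capitals stand in 4 of the 8 windows, those of rpl-3, rpl-20, rpl-15 and rps-1. In rpl-3 the hexamer is centred on the summit itself. The G and C content of these 8 windows ran from 44.6% to 55.4%.

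After the 6 highest, the signal of members by a peak ran from 73.3 down to 29.1. The gene rpl-11.2, for a large subunit protein that binds 5S ribosomal RNA, had a signal of 73.3 with pooled rank 46 and ranks 91 and 49 in replicates 1 and 2. For rpl-43 the signal was 69.4, pooled rank 51, and its ranks were 234 and 43. For rps-15, a protein of the head of the small subunit, the signal was also 69.4, pooled rank 52, with ranks 306 and 40. Each of these genes ranked lower in replicate 1 than in replicate 2, with the smallest gap at rpl-11.2 (nuclear rank 71 in replicate 1).

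The gene rps-19, whose human counterpart is needed to mature the small subunit RNA and is mutated in Diamond-Blackfan anaemia, had a signal of 62.0 with pooled rank 59 and ranks 66 and 61. For rpl-12, at the base of the stalk that engages the translational GTPases, the signal was 59.8, pooled rank 61, and its ranks were 307 and 56. The summit by rpl-12 was 51 bp upstream of the 5′ end. For rpl-22 the signal was 49.4, pooled rank 96, with ranks 147 and 90, and for rps-28 it was 47.1, pooled rank 112, with ranks 69 and 185. Of these 4, rps-28 and, by its nuclear rank of 48 in replicate 1, rps-19 ranked higher in replicate 1 than in replicate 2.

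A set of members was high in replicate 2 and far lower in replicate 1. The gene rpl-24.2, whose human relative RSL24D1 takes part in assembling the large subunit, had a signal of 42.5, pooled rank 144, and ranks 9900 and 89 in replicates 1 and 2. For rps-26, at the mRNA exit of the small subunit, the signal was 29.1, pooled rank 347, with ranks 11354 and 292. The neighbours rpl-41.1 and rpl-41.2, for the smallest ribosomal protein, share 1 region with a signal of 30.5, pooled rank 310, and ranks 9070 and 314. These 4 genes rest on replicate 2: their regions were listed in replicate 1 but at ranks of 9070 and beyond.

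Less marked gaps of that kind were seen at rpl-7A (signal 41.1, pooled rank 161), with ranks 1112 and 128, and at rps-0 (37.0, pooled rank 208), whose human relative RPSA is also called the laminin receptor, with ranks 1238 and 215. At rpl-6 (36.7, pooled rank 211) the ranks were 1511 and 159, and at rps-21 (35.3, pooled rank 229) they were 1133 and 206. The gene rpl-27 (40.7, pooled rank 169) had ranks 564 and 169. Its summit was 731 bp downstream of its own 5′ end but 47 bp from that of egl-30, which encodes a G protein alpha subunit. All 5 were within the 415 highest nuclear regions of replicate 2 and outside them in replicate 1.

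The converse held at 4 members. The gene rps-24 had a signal of 30.7, pooled rank 302, with ranks 214 and 505. For rpl-23, at the face where the subunits meet, the signal was 30.1, pooled rank 314, with ranks 180 and 609. The divergent pair rpl-36 and rps-14 share 1 region in the 663 bp between their 5′ ends, with a signal of 29.7, pooled rank 322, and ranks 353 and 676. All 4 were within the 415 highest nuclear regions of replicate 1 and outside them in replicate 2.

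The remaining members by a peak were high in both replicates. They were rps-20 (signal 39.7, pooled rank 176), with ranks 141 and 190, rps-23 (36.6, pooled rank 212), whose product guards the accuracy of decoding, with ranks 160 and 369, and rpl-38 (34.5, pooled rank 243), with ranks 354 and 307. In all, each of the 29 members by a peak reached the 415 highest nuclear regions of some replicate: 16 did so in both, 9 in the second replicate alone and 4 in the first alone. No member without a peak reached that rank in either replicate. The pooled list holds both libraries, so a peak and a high rank in a replicate are linked by construction. Of the 19895 other protein-coding genes, 174 (0.875%) reached that rank in both replicates.

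**Figure D2:**
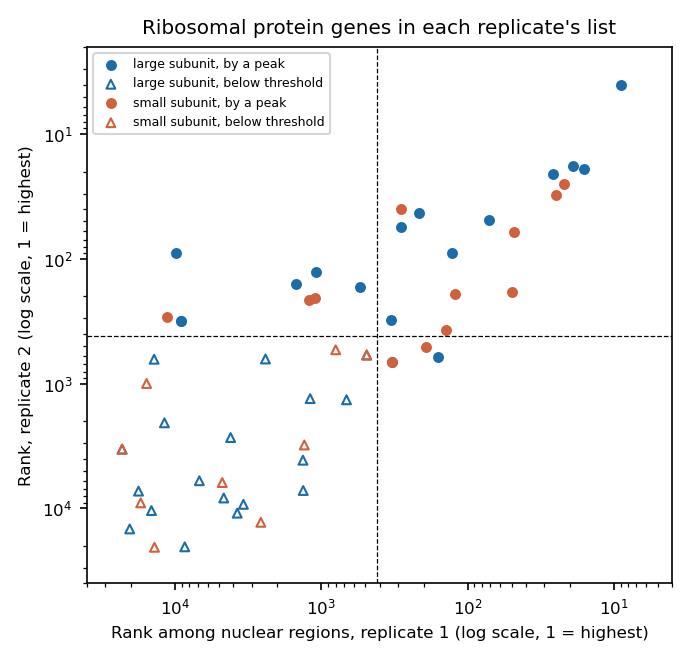
Rank of each member's region among nuclear regions of replicate 1 (horizontal, log scale) and rank in replicate 2 (vertical, log scale), with rank 1 towards the upper right, for the 56 members with a region in both lists. Filled circles are members by a peak, open triangles members below the threshold, and dashed lines mark rank 415. The upper right corner holds 16 members, all by a peak, and the upper left corner holds the 9 that were high in replicate 2 only.

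Across the 56 members with a region in both lists, the nuclear ranks of replicate 1 and those of replicate 2 had a Spearman rho of 0.743. Over other protein-coding genes with a region in both lists the rho was 0.363 (n = 2786). Within the 29 members by a peak it was 0.6, and within other genes by a peak 0.328 (n = 364). These are descriptions across genes, which share the 2 libraries and are not independent replicates. Both sets were also picked through the pooled list, which holds both libraries. A region of replicate 2 overlapped the pooled region at 69 members and one of replicate 1 at 57.

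Just under the threshold stood rps-4, with a signal of 25.1, pooled rank 496, and ranks 821 and 536 in replicates 1 and 2, against 29.1 at rps-26 just above it. The gene rpl-31, for a protein at the tunnel exit, had a signal of 22.6, pooled rank 617, with ranks 696 and 1349. The divergent genes rpl-24.1 and rps-10 share 1 region with a signal of 22.4, pooled rank 632, and ranks 513 and 590. For rpl-9 the signal was 22.05, pooled rank 652, with ranks 2435 and 635. So members stood on both sides close to the threshold, and rps-4 and the rpl-24.1 and rps-10 region ranked within 1000 in both replicates. The 42 members with a region below the threshold reached from rps-4 down to a signal of 7.606 at rps-27.

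No pooled region lay within 1000 bp of 7 members. In the large subunit these were rpl-4, whose product lines the exit tunnel, rpl-19, rpl-34 and rpl-42. In the small subunit they were rps-7, rps-9, whose product lies at the mRNA entry, and rps-29. The nearest pooled summit was 1463 bp away at rpl-34 and 3524 bp away at rpl-42, with the other 5 in between. For rpl-19 the annotated 5′ end was 642 bp from the start codon, so its distance is measured from a point unlike that of most members. That a list of 30000 regions holds none there does not show that NHR-77 was absent.

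Of the paralog pairs, rpl-11.2 and rpl-11.1 differed most in signal, while rpl-41.1 and rpl-41.2 share 1 region and cannot be compared. The gene rpl-11.2 on X had a signal of 73.3 and rpl-11.1 on V, which encodes a near copy of the same protein, had 8.73 with pooled rank 11806 and ranks 6852 and 6013 in replicates 1 and 2. That is a difference between a value in the top 1% of genes and one near the median of all genes with a region. Of rpl-24.2 and rpl-24.1, the first had 42.5 and the second 22.4, but in replicate 1 their order was the reverse, with ranks 9900 and 513. The pair rpl-25.1 on X and rpl-25.2, for a protein at the tunnel exit, had 13.6 and 13.9, with pooled ranks 2752 and 2555. Reads that fit both copies could be placed at either or dropped, and how the authors treated them is not given in the sources used here.

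Members by a peak were spread over all 6 nuclear chromosomes. There were 8 of 23 on chromosome I, 2 of 10 on II, 10 of 18 on III, 7 of 17 on IV, 1 of 8 on V and 1 of 2 on X. The share of all protein-coding genes by a peak was also highest on III, at 3.3%, and lowest on V, at 1.04%.

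The members' summits also shared a position. The summits by the 29 members with a peak had a median offset of 287 bp upstream of the annotated 5′ end (−287, middle 50% from −371 to −237), and 27 of the 29 were upstream. In other genes by a peak the median was −227 (middle 50% from −366 to −130), and 340 of 369 were upstream. The upstream shares, 93.1% and 92.1%, were thus alike, and the sets differed in how far upstream the summits lay. A summit 200 to 400 bp upstream was found at 19 of the 29 (65.5%), 9 of 17 in the large subunit and 10 of 12 in the small, against 126 of 369 other genes by a peak (34.1%). Over all regions, thresholded or not, 39 of 71 members (54.9%) and 14.5% of other genes had their highest summit in that interval. The median was −285 in replicate 1 and −278 in replicate 2 for the members by a peak.

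Counting every pooled summit, and not the highest alone, gave the same picture. There were 33.3 summits per 100 ribosomal protein genes in the bin from −300 to −201 bp, against 4.83 per 100 other genes, and 26.9 against 4.1 in the bin from −400 to −301 bp. In the last 100 bp before the 5′ end the figures were 5.13 and 4.41, so there the 2 sets were alike. From 700 to 899 bp downstream the members' counts were raised again, with 11.5 and 15.4 per 100 genes in the 2 bins against 2.66 and 2.77. The median member gene is 753 bp long, against 2027 bp over all protein-coding genes, so these bins lie around the 3′ ends of many members.

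**Figure D3:**
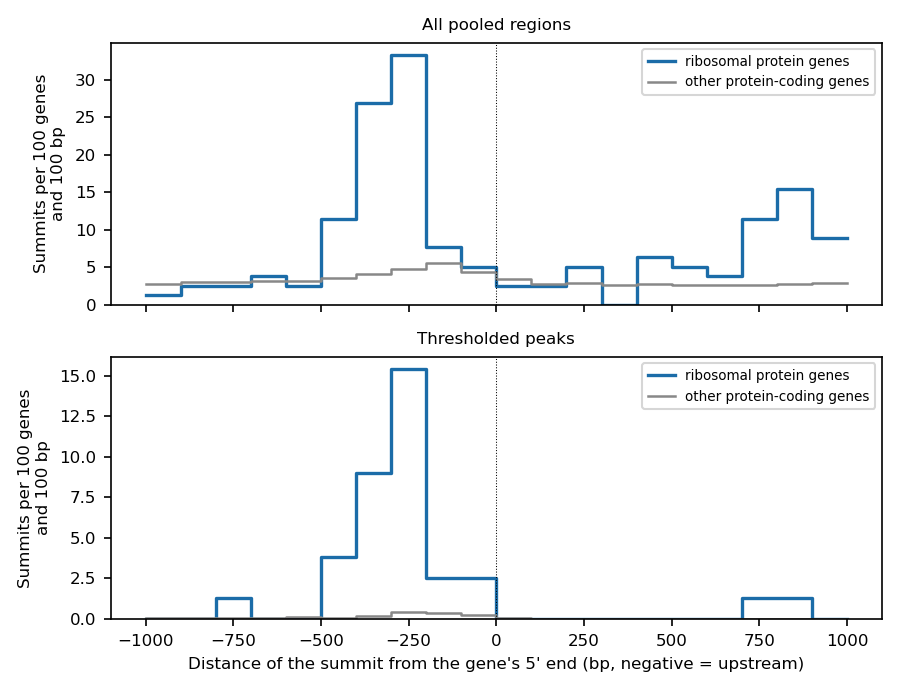
Summits per 100 genes in each 100 bp bin (vertical) against distance from the annotated 5′ end in bp (horizontal, negative is upstream), for the 78 ribosomal protein genes (blue) and 19895 other protein-coding genes (grey), with all pooled regions above and thresholded peaks below. The members' summits gather at 200 to 400 bp upstream, with 33.3 and 26.9 per 100 genes in the 2 bins, while those of other genes are spread more evenly.

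The summit lay outside any protein-coding gene at 28 of the 29 members by a peak and at 33 of the 42 below the threshold. The exception with a peak was rpl-24.2, which lies downstream of a summit in an intron of C03D6.1. No peak had its summit inside a ribosomal protein gene. A divergent gene with its 5′ end within 1000 bp was present at 17 of the 29 members by a peak, 26 of the 42 below the threshold and 4 of the 7 with no region, so this arrangement did not separate them. At 13 of the 29 another protein-coding gene had its 5′ end closer to the summit than the member. Counting a peak only where no other gene start was closer left 16 of the 29. Among all 398 protein-coding genes by a peak it left 274, a larger share. Within 500 bp of the summit there was a small nucleolar RNA gene at 3 of the 29, namely rps-12, rpl-7A and rps-26, and at 2 of the 42, which share 1 region. No tRNA or snRNA gene lay so near any of them. For the places of summits and the short RNA genes no share over other genes is given, so these counts describe the members alone.

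Base composition at the summits was like that of other peaks. The G and C content of 200 bp windows was 42.8% ± 5.71 (SD, n = 27 distinct windows) at members by a peak and 43.1% ± 7.08 (SD, n = 246) at other genes by a peak, a difference smaller than either SD. Members with any region had 40.5% ± 7.03 (SD, n = 67) and other genes with a region 35.2% ± 7.09 (SD, n = 8759). Windows are not replicates, and the SD is that between windows.

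A search was made on both strands of the windows for 7 short patterns, among them AGGTCA and the related AGTTCA, sites that nuclear receptors are known to bind. In 200 bp windows AGGTCA stood in 2 of 67 member windows (2.99%) and in 5.35% of windows at other genes with a region. AGTTCA stood in 8 (11.9%) against 12.8%. In 100 bp windows both were slightly more frequent at the members, with 2 (2.99%) against 2.64% and 5 (7.46%) against 6.38%, so the direction turned with the window. In the 27 windows of 200 bp at members by a peak the counts were 0 and 1. In 200 bp windows only GGGCGG, an Sp1-like pattern, with 4 (5.97%) against 3.9%, and GAGAGA, with 13 (19.4%) against 14.6%, had a higher share at members with a region than at other genes with one. Among genes by a peak both shares were lower at the members, 7.41% against 8.54% for GGGCGG and for GAGAGA 29.6% against 31.7%. The E box CACGTG had 2 (2.99%) against 3.43%, TATAAA had 7 (10.4%) against 23.6%, and TTTCAG, the splice acceptor, had 20 (29.9%) against 35.6%. A match is a run of letters and not a shown binding site, and the absence of one says nothing about the receptor.

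Other hexamers did differ, and were picked for that from all hexamers, so that their shares are descriptions. TACGGT, or ACCGTA on the other strand, stood in 24 of the 67 member windows (35.8%) against 5.73% at other genes with a region. TAGGCC stood in 18 (26.9%) against 3.32%, TTTAGG in 25 (37.3%) against 8.6%, GCGAAA in 27 (40.3%) against 13.3%, and AAATCG in 34 (50.7%) against 21.3%.

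The hexamer TACGGT was found upstream of ribosomal protein genes with and without a peak. In the 500 bp upstream of the 5′ end it was present at 36 of 78 members (46.2%), against 13.8% of other genes and 21.7% of other genes by a peak. It was there at 11 of the 29 members by a peak (37.9%), at 21 of the 42 below the threshold (50%) and at 4 of the 7 with no region (57.1%). It was at 25 of 47 large subunit genes (53.2%) and 11 of 31 small subunit genes (35.5%). Its 37 matches lay at a median of 287 bp upstream, 27 of them between 200 and 400 bp. Of the 33 matches at members with a region, 23 were within 100 bp of the summit. At the summits the order of the classes was the other way: TACGGT stood in 12 of 27 summit windows of members by a peak (44.4%) and in 12 of 40 of members below the threshold (30%), against 13% at other genes by a peak. Hexamer and summit thus often lay in the same interval, and whether the hexamer goes with a peak depends on where it is counted.

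Its orientation was uneven. TACGGT read against the direction of the gene at 26 of the 37 matches and along it at 11. At members by a peak 6 read along the gene and 5 against it, and at the others 5 and 21. The 30-base stretches that follow are printed so that the hexamer, in capitals, reads TACGGT. They were chosen because ACAC starts at the second base after it, as in 10 of the 25 distinct stretches read. The likeness of the printed lines there follows from that choice. The stretch of rpl-29 also has ACAC and is not shown. Those of members by a peak come from chrX:2242948-2242977 (plus strand) for rpl-11.2, chrII:5055382-5055411 (minus) for rpl-22, chrV:15511816-15511845 (minus) for rpl-38, chrIII:7208072-7208101 (minus) for rpl-6 and chrIV:12391295-12391324 (minus) for rps-23. Below the threshold are chrIII:8130506-8130535 (plus) for rpl-21 and chrIII:6375149-6375178 (plus) for rps-13. From members with no region are chrIV:12268563-12268592 (minus) for rpl-34 and chrIII:793802-793831 (minus) for rps-29, all in ce11.
rpl-11.2: aggcaaaatgacTACGGTaacactcgtttc
rpl-22: cacgacaataacTACGGTcacactcgtttc
rpl-38: tgtgcgaaggggTACGGTtacacttgttca
rpl-6: cccgcgtctgacTACGGTgacactcgtttt
rps-23: gctacctcgaggTACGGTaacactcgtttc
rpl-21: aaaggcacacagTACGGTaacactcgtttc
rps-13: ctaaaagttgtaTACGGTaacactcgtttt
rpl-34: cggcgcgaagacTACGGTaacactcgttta
rps-29: ccgccactcgggTACGGTcacactcgtttc
In the 25 distinct stretches whose letters were read (those of 1 chromosome were not), the most common 4 letters from the second base after the hexamer were ACAC, at 10 of them, and no other 4 letters occurred more than 1 time there. The longer pattern TACGGTNACAC, in which N is any base and which was formed after these lines had been seen, was present on either strand in the 500 bp upstream of 15 of 78 members (19.2%) and of 40 of 19895 other genes (0.201%). It was upstream of 9 large and 6 small subunit genes. By class it was at 5 of 29 members by a peak, 7 of 42 below the threshold and 3 of 7 with no region, and rpl-24.1 and rps-10 share 1 match. Of its 15 matches, 12 read against the direction of the gene. At 200 bp summit windows it stood in 5 of 27 at members by a peak (18.5%), 5 of 40 at members below the threshold (12.5%), 5 of 246 at other genes by a peak (2.03%) and 7 of 8513 at other genes below the threshold (0.0822%).

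The runs of letters that recur in the windows of the highest members were counted in the same way, again after being seen. CGAGTGT, which can overlap the end of the longer pattern on the other strand, was upstream of 17 of 78 members (21.8%) and 2.55% of other genes. It stood in 8 of 27 summit windows at members by a peak (29.6%) and 4 of 40 below the threshold (10%). At all of the 17 but rpl-3, rpl-15, rpl-20 and rpl-24.2 it overlapped a match of the longer pattern, so it was mostly the same site counted again. Of the exceptions, rpl-3, rpl-15 and rpl-20 are windows it was read from. GTGTATG was upstream of 4 of the 29 members by a peak and 0 of the 49 other members, against 3.8% of other genes. All 4 (rpl-15, rpl-20, rpl-35 and rps-1) are genes whose printed windows it was read from, so this split followed from that choice. ATTGTGG, seen at rpl-15 and rps-1, was upstream of 4 of 78 members (5.13%) and 6.02% of other genes, so it was no more frequent at the members.

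Genes with related functions were compared by the same measures. The mitochondrial ribosome has its own set of proteins, and 4 of 70 genes for them were by a peak (5.71%), with a median signal of 10.4 for those with a region. The highest was mrpl-55, with a signal of 38.4, pooled rank 186, and ranks 280 and 220 in replicates 1 and 2. Cytosolic members thus stood above mitochondrial ones both in share and in median, without a test. Of 6 genes for elongation factors, which bring aminoacyl-tRNA to the ribosome and move it along, 5 were by a peak (83.3%), with a median signal of 35.19. The highest was eef-1B.1, with a signal of 52.35, pooled rank 82, and ranks 107 and 105.

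Cytosolic ribosome genes outside the naming rule, which include the stalk proteins and ubiquitin fusions, had a peak at 1 of 6, namely ubl-1, which encodes a ubiquitin-like protein fused to a small subunit protein, with a signal of 32.17, pooled rank 275, and ranks 674 and 342. Of 19 genes for ribosome assembly factors 2 had a peak. They were fib-1, for the nucleolar RNA methylase fibrillarin, with a signal of 29.44 and pooled rank 331, and nol-56, of the same nucleolar complex, with 27.99 and pooled rank 377. These small lists give shares with little precision.

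**Figure D4:**
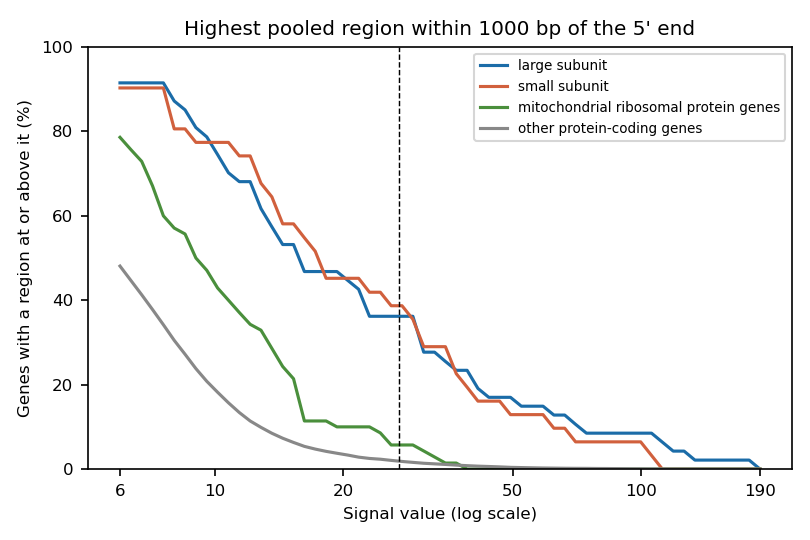
Percent of genes (vertical) whose highest pooled region within 1000 bp of the 5′ end has at least the signal value on the horizontal log axis, for large subunit (47), small subunit (31), mitochondrial ribosomal protein (70) and other protein-coding genes (19895). The dashed line is the lowest thresholded peak at 27.1, where the large and small subunit curves stand at 36.2% and 38.7%, the mitochondrial curve at 5.71% and that of other genes at 1.85%.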

How the data were processed

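The deposited files were narrowPeak lists of ChIP-seq regions on ce11, per the file headers and labels: relaxed lists of each replicate and of both pooled, made from the alignments and a further file, and a thresholded list derived from these. Column 7, the signal value, is a score the authors deposited. Its scale, the aligner, the peak caller and the sequencing depth are not stated in the labels or headers (not given in the sources used here). The ce10 lists were not used.

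The members and comparison lists were chosen with earlier results of these data known. For each gene of Ensembl release 115 the highest pooled region with its summit within 1000 bp of the 5′ end of the gene was taken, and each replicate's region was the highest that overlapped it. Windows of 200 bp were centred on summits. The named genes are all members by a peak, the 5 highest members below the threshold, members with no region, paralog pairs and the highest gene of each other list; rpl-24.1 and rps-10 share 1 region. In the ribosome assembly list, 2 of 25 planned genes were entered in error and left out before their values were seen, and 4 of the other 23 symbols were not found in the annotation. The search was tested on simulated regions. Tools were Python 3.11.15, pandas 2.3.3, numpy 2.4.6, scipy 1.17.1 and matplotlib 3.10.9. No test was run, since the samples form 1 group. The alternatives were other distances, windows and region counts, other ways to match genes to regions, and each replicate alone.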

Additional observations from a re-analysis of the deposited data

How the results depend on the processing

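The counts of members by a peak (29, with 17 for the large and 12 for the small subunit) depended on how close a summit had to be. Within 250 bp they were 6, 3 and 3, against 0.986% of all genes, because the members' summits lie farther upstream. Counting a peak only where no other gene start was closer gave 16, 11 and 5, against 1.37% of all genes, and the upper 50% of the peaks gave 17, 11 and 6, against 1.02%. With 500 or 2000 bp the total was 26 or 30, against 1.58% or 2.81% of all genes. From 1 replicate alone it was 20 to 25 over all members, 11 to 15 in the large and 9 to 10 in the small subunit. Without replicate 2 the large subunit count fell to 11, and the share of all genes was then 1.81%. Without replicate 1 that share was 1.95%. As alternatives added after seeing the data, counting shared regions once gave 27, and leaving out members with a short RNA gene near gave 26. The median signal of all members was 16.58 to 20.19 over the settings tried, with 15.93 to 20.19 in the large and 17.54 to 23.75 in the small subunit. The number of members with a region was 67 to 73 by each replicate's list alone.

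The rank correlation was 0.6 over members by a peak only. The G and C content was 49.8% in 100 bp windows and 35.6% in 400 bp windows at members by a peak, and at other genes by a peak 47.5% and 38.7%, so which was higher changed with the window. The number of the 7 patterns more frequent at members was 2 in 200 bp windows, 4 in 100 bp windows, where AGGTCA and AGTTCA joined GGGCGG and GAGAGA, and 3 in 400 bp windows, where TTTCAG joined them. TACGGT was found upstream of 20 members (25.6%) within 300 bp, against 8.47% of other genes. Within 1000 bp it was at 39 (50%) against 24.6%. Both alternatives were added after seeing the data. In all, 44 of 71 alternative values stayed close to those reported and 27 moved. Among comparisons with other genes, those of G and C content, AGGTCA and AGTTCA turned direction as given above. That of TTTCAG at members with a region turned too. Its share was 29.9% against 35.6% in 200 bp windows and 68.7% against 58.8% in 400 bp windows. The cause of a move was not tested beyond what each alternative changes by construction. The comparisons between gene lists were run under no alternative. No paired analysis was possible because there is only 1 group. Depth is unknown, so no region's counting error can be given, and 2 replicates set the precision.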

Other observations

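Ribosomal protein genes also had regions past their 3′ ends. A pooled summit lay 100 to 500 bp downstream of the annotated 3′ end at 39 of 78 members (50%), against 16.4% of other protein-coding genes. There were 40 such regions, of which 2 were thresholded peaks, those by rpl-27 and rpl-41.1. At 9 of the 40 another gene had its 5′ end from 100 bp before to 500 bp after the summit, read in that gene's direction. As examples, by rpl-20 the region was 398 bp past the 3′ end with a signal of 25.93 and pooled rank 464. By rpl-12 it was 267 bp past with 20.77 and rank 757, and it was among those 9, with the start of tag-115. By rpl-11.2 it was 184 bp past with 16.93 and rank 1328. Regions by some other members, such as rpl-26 with 20.19, were higher than that by rpl-11.2. These values are listed without an explanation, and input or untagged samples were not analysed here.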
